A study of Mus musculus with 8 samples.

Results

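The subpallial transcription factors considered here are 10 genes that pattern the ventral forebrain: Meis2, Isl1, Foxp1, Foxp2, Tshz1, Zfhx3, Dlx1, Dlx2, Dlx5 and Dlx6. They were taken by gene symbol, and all 10 are among the 18983 genes of the deposited count table. The table holds 8 mRNA libraries of central amygdala from 129SV mice aged 7 months. High fat feeding for 20 weeks preceded 4 of them, and normal chow over the same 20 weeks the other 4. Titles number the libraries of each diet 1, 2, 5 and 8, and where 4 values follow each other below they are in this order. The labels name no transgene. Whether 1 library is 1 animal is not stated either, so the spread behind each p-value could be technical.

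The subpallium is the ventral part of the embryonic telencephalon, and it gives rise to the striatum, the central amygdala, the intercalated cells of the amygdala and most forebrain GABAergic neurons. DLX proteins are homeodomain factors that drive migration and GABAergic differentiation of these neurons. MEIS2, ISL1, FOXP1, FOXP2, TSHZ1 and ZFHX3 act in subsets of them, for example in striatal projection neurons and intercalated cells. The neighbouring cortex and basolateral amygdala are of pallial origin and hold mostly glutamatergic neurons, which use other factors.

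The 4 Dlx genes lie in 2 convergent pairs. On mm10, Dlx1 (chromosome 2, 71528113 to 71533981, plus strand) and Dlx2 (71543408 to 71546754, minus strand) are 9426 bases apart. Dlx6 (chromosome 6, 6863334 to 6867970, plus strand) and Dlx5 (6877801 to 6882068, minus strand) are 9830 bases apart. All 4637 bases of Dlx6 lie inside the gene of the antisense RNA Dlx6os1, and 3344 bases of Dlx1 lie inside that of Dlx1as. Neither antisense gene has a value here, and how strand was treated in counting is unknown, so reads from sequence that Dlx1 shares with Dlx1as cannot be told apart. Among all 50-base windows of annotated transcripts, 5.19% of those of Dlx1 also occur in Dlx1as, and none of those of Dlx6 occur in Dlx6os1. Of the Dlx6 windows, 6.09% occur in transcripts of other genes, against 0.19% for Meis2, 0.32% for Foxp2, 2.42% for Foxp1 and 0% for Isl1, Tshz1, Zfhx3, Dlx2 and Dlx5.

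Start-site sequences are shown for Meis2 and Isl1, whose levels varied widely among the libraries, and for Dlx1 and Dlx2, neighbours whose diet differences had opposite signs. Each run holds 250 bases before and 50 after an annotated start (RefSeq, GRCm38.p6, the build also called mm10), written 5′ to 3′ on the gene's strand, with CpG dinucleotides in capitals. The Meis2 window is chr2:116064570-116064869 (minus strand), the Isl1 window chr13:116309639-116309938 (minus), the Dlx1 window chr2:71529195-71529494 (plus) and the Dlx2 window chr2:71546705-71547004 (minus).
Meis2: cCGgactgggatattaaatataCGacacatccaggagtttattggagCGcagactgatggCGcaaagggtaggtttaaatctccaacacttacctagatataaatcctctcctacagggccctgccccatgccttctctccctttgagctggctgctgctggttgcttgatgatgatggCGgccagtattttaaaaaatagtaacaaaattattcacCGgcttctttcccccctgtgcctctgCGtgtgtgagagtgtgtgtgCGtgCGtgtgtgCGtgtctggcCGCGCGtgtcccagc
Isl1: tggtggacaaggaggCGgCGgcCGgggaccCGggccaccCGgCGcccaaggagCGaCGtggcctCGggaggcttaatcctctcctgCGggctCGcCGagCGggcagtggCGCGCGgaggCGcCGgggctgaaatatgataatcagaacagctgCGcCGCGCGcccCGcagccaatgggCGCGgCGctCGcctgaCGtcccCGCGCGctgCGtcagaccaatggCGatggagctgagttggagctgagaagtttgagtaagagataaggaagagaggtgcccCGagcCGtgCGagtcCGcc
Dlx1: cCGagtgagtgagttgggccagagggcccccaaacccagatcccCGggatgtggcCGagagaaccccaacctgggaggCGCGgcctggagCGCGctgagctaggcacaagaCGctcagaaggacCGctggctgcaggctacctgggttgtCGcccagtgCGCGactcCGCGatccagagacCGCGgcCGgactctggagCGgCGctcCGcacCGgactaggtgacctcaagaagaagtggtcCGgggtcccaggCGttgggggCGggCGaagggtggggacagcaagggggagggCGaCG
Dlx2: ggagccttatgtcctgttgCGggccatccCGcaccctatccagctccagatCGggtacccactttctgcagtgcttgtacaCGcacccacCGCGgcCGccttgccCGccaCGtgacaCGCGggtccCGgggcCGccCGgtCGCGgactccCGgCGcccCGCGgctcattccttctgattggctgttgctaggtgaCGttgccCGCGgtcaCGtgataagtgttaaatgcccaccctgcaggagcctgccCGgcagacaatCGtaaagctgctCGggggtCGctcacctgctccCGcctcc

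These windows hold 13, 37, 27 and 29 CpG dinucleotides for Meis2, Isl1, Dlx1 and Dlx2, where the median over 32851 windows of this length is 7. Their GC content is 51.0%, 69.0%, 69.3% and 66.3%, beside a median of 52.7%. The core letters TAATTA (homeodomain), TGACAG (MEIS) and TGTTTAC (forkhead) were searched on both strands. They were found in 5.29%, 19.18% and 3.65% of all windows and in none of the 4 printed. Of the 8 windows listed for 6 members, 1 of Foxp1 (chr6:99266466-99266765, minus strand) held TAATTA and TGACAG. The Zfhx3 window and the other Foxp1 windows held none of these letters.

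The authors' means of each diet, given as TPM and as FPKM, were the only deposited levels scaled to transcript length. The mean TPM was used for ranking here. It carries no spread, so neighbours in this order cannot be told apart. In the authors' deposited table the mean TPM with chow was 171 for Meis2, 34.4 for Dlx6, 26.7 for Tshz1, 26.4 for Dlx1, 26.2 for Dlx5 and 25.7 for Foxp1. It was 12.2 for Dlx2, 11.0 for Isl1, 9.47 for Foxp2 and 5.90 for Zfhx3. With high fat diet the authors' mean TPM was 85.6 for Meis2, 34.5 for Dlx1, 30.9 for Foxp1, 22.5 for Tshz1, 20.3 for Dlx6 and 17.8 for Dlx5. It was 9.80 for Dlx2, 5.72 for Foxp2, 4.46 for Isl1 and 3.58 for Zfhx3. Meis2 was thus the first and Zfhx3 the last of the 10 in both diets. Dlx1 and Foxp1 followed Meis2 with high fat diet, but with chow they lay within 25.7 to 26.7 together with Tshz1 and Dlx5. Their order with chow is not resolved, so no change of rank between the diets is read from it.

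Libraries held 17451111 to 19562368 estimated counts. Neuron type markers varied inside each diet too. The 12 excitatory neuron markers summed to 3008 to 7526 CPM with high fat diet and to 2118, 5771, 1541 and 1397 CPM in chow replicates 1, 2, 5 and 8. CPM is a count scaled to the size of its library, with TMM factors, so that levels compare between libraries but not between genes. The 12 striatal markers ran the other way, at 454 to 1613 CPM with high fat diet and 4416, 607, 2066 and 2911 CPM in these chow libraries. Chow replicate 2 thus resembled the high fat libraries in both lists. The 10 central amygdala markers summed to 460 to 616 CPM in the high fat libraries, within the 430 to 765 CPM of those on chow. Of these markers, Sst, the somatostatin gene, made up much of the sum, at 223 to 463 CPM over the 8 libraries. Crh, the corticotropin-releasing hormone gene, was at only 2.30 to 16.4 CPM. Those with the smallest p between the diets varied more than the sum. Prkcd spanned 11.0 to 273 CPM, Dlk1 50.2 to 108 CPM, Tac2 4.70 to 75.2 CPM and Pdyn 3.53 to 106 CPM. The sum therefore does not show that single markers were alike across libraries. In bulk tissue, fewer cells of a type and less RNA per cell cannot be told apart.

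The diets were set side by side to ask whether these factors differ after 20 weeks of high fat feeding. All 10 members could be tested, and 0 passed. The median log2 fold change (high fat over chow) of the 10 was -0.70, beside -0.012 over the 15186 genes tested, and 8 of 10 were negative, beside 51.8% of all genes. Without chow replicates 5 and 8 together the median was -0.25, with 4 positive and 6 negative folds. By edgeR's quasi-likelihood test 0 of 15186 genes passed an adjusted p of 0.05 (0% called), and 649 (4.27%) had an unadjusted p under 0.05, 1.65% higher and 2.63% lower with high fat diet. DESeq2 and limma-voom also called 0 genes, with 990 and 652 at an unadjusted p under 0.05. Without chow replicate 2, edgeR called 116 of 15303 genes (0.758%), but still 0 members. In that setting 6 members had an unadjusted p under 0.05, where 19.4% of all genes did.

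**Figure D1:**
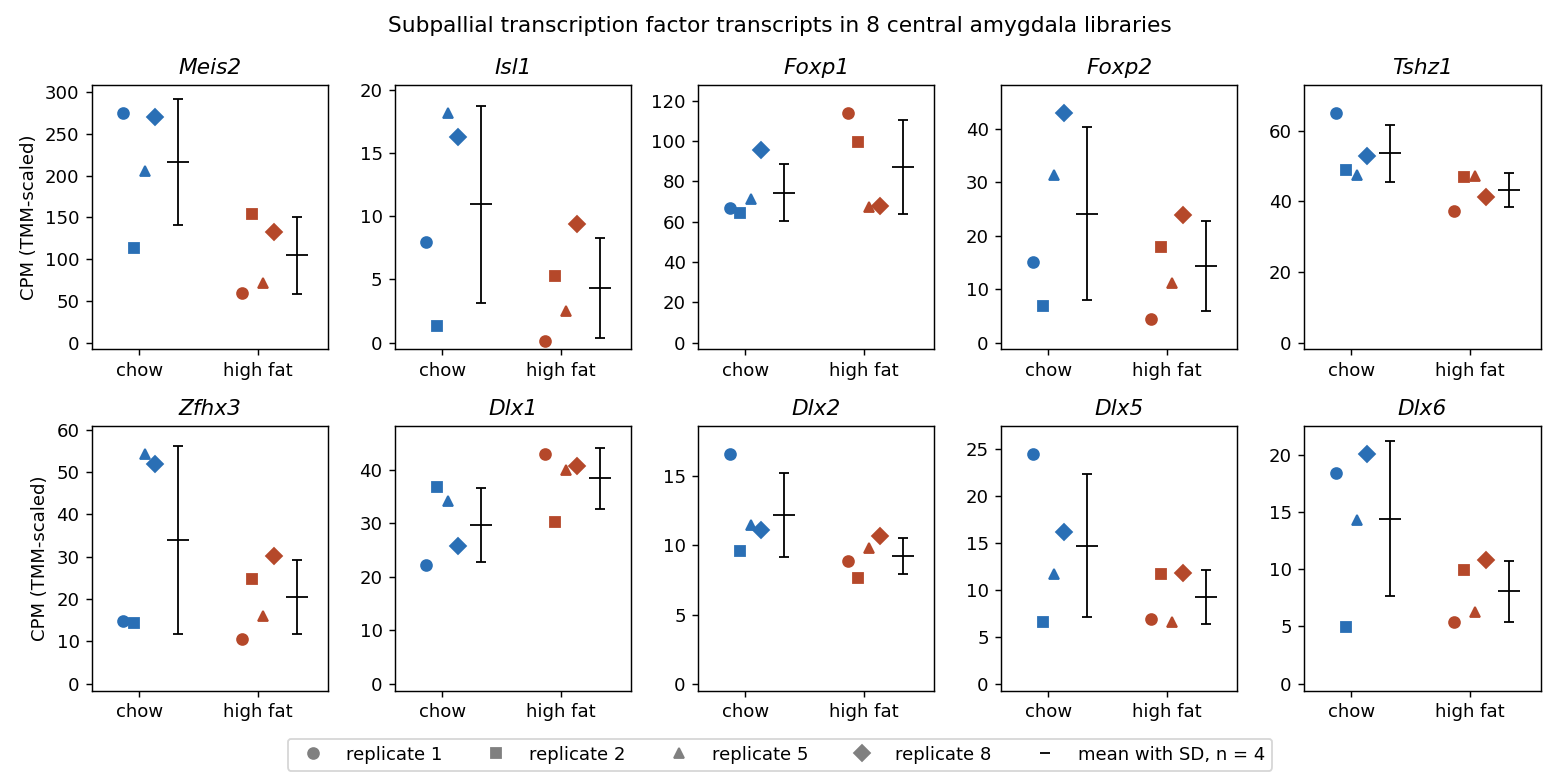
Level of each member in CPM (y axis, TMM-scaled, linear) in the 4 chow and 4 high fat libraries, with 1 point per library (shape gives the replicate number) and the mean with SD beside them. Meis2 ran from 59.6 to 276 CPM and Dlx1 from 22.2 to 43.0 CPM, and the diets overlapped for every member except Tshz1, whose highest high fat value was 47.2 CPM and lowest chow value 47.5 CPM.

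Meis2, a TALE-class homeobox gene of striatal and central amygdala neurons (chromosome 2, 115861264 to 116067537), was at 59.6, 154, 71.5 and 133 CPM after high fat feeding. With chow it was at 276, 113, 206 and 270 CPM. The 3 highest libraries were chow replicates 1, 8 and 5, while chow replicate 2 lay within the high fat range. The mean with chow was 216 ± 75.8 CPM and that of the high fat libraries 105 ± 46.0 CPM (SD, n = 4 in each diet). The log2 fold change was -1.05 ± 0.37 (SE; adjusted p = 0.753 by edgeR), and Meis2 was the only member with an unadjusted p under 0.05 (0.0203), where 4.27% of all genes had one. By edgeR, that p rose to 0.0505 or 0.0556 when high fat replicate 1 or 5 alone was dropped. Dropping chow replicate 1 or 8 alone gave 0.0537 or 0.0527. The p stayed under 0.05 when the single library dropped was high fat replicate 2 (0.0103) or 8 (0.0229). The same held for chow replicate 2 (0.00513) or 5 (0.0343).

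Isl1, a LIM homeobox gene of striatal projection and cholinergic neurons (chromosome 13, 116298270 to 116309688), was the most variable member. It was at 0.112, 5.23, 2.50 and 9.39 CPM after high fat feeding, and at 7.97, 1.27, 18.2 and 16.3 CPM in the chow libraries. High fat replicate 1 held only 2 estimated counts, whose exact 95% Poisson interval is 0.0136 to 0.404 CPM and covers counting error only. The lowest libraries, high fat replicate 1 and chow replicate 2, thus came from different diets, and the groups overlapped. The log2 fold change was -1.34 ± 0.98 (SE; adjusted p = 0.754 by edgeR). Leaving out high fat replicate 8 gave -2.06, and leaving out chow replicates 5 and 8 gave -0.10, a pair left out because earlier results set these libraries apart.

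Foxp2, a forkhead repressor known for human speech and found in intercalated and striatal neurons (chromosome 6, 14901349 to 15441977), was at 4.31, 17.8, 11.2 and 23.9 CPM after high fat feeding. In the chow libraries it was at 15.1, 6.90, 31.4 and 43.0 CPM. Chow replicates 5 and 8 were highest and the other chow libraries lay within the high fat range. The log2 fold change was -0.75 ± 0.62 (SE; adjusted p = 0.760 by edgeR). It was -0.32 without chow replicate 8, and 0.38 without chow replicates 5 and 8.

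Its paralogue Foxp1 (chromosome 6, 98925342 to 99522746), which is expressed in striatal projection neurons and also in cortical layers, varied little. It was at 114, 99.3, 67.0 and 67.7 CPM in the high fat libraries and at 66.7, 64.1, 71.3 and 95.4 CPM in those on chow. The highest libraries were high fat replicates 1 and 2 and chow replicate 8, and the groups overlapped. The log2 fold change was 0.23 ± 0.21 (SE; adjusted p = 0.790 by edgeR). Leaving out high fat replicate 1 gave 0.07, and leaving out chow replicate 8 gave 0.37. The ratio of Foxp1 to Foxp2 estimated counts was 26.5, 5.59, 5.98 and 2.84 after high fat feeding and 4.42, 9.28, 2.27 and 2.22 in the chow libraries. The forkhead pair therefore did not vary in parallel, and high fat replicate 1 and chow replicate 2 had the highest ratios.

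Tshz1, a teashirt-family zinc finger gene of intercalated cells, was the member whose diet groups did not overlap. It was at 37.3, 47.0, 47.2 and 41.4 CPM in the high fat libraries and at 65.2, 49.0, 47.5 and 52.9 CPM in those on chow. The gap was that between 47.2 CPM in high fat replicate 5 and 47.5 CPM in chow replicate 5, and it closed without TMM scaling, a setting added after the data were seen, where the highest high fat value was 47.7 CPM and the lowest chow value 47.5 CPM. Over all genes tested, 1.36% had groups that did not overlap (0.645% higher and 0.718% lower with high fat diet), and 1 of 10 members did. The log2 fold change was -0.31 ± 0.14 (SE; adjusted p = 0.753 by edgeR).

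Zfhx3, a zinc finger homeobox gene known for its part in the circadian clock of the hypothalamus (chromosome 8, 108279311 to 108961636), was at 10.6, 24.8, 16.1 and 30.2 CPM with high fat diet. With chow it was at 14.8, 14.5, 54.3 and 51.8 CPM. Chow replicates 5 and 8 stood above the other 6 libraries, and chow replicates 1 and 2 lay among the high fat libraries. The log2 fold change was -0.73 ± 0.51 (SE; adjusted p = 0.754 by edgeR). It was -0.40 without chow replicate 5, and 0.48 without chow replicates 5 and 8. Chow replicates 5 and 8 also had the highest scores of the 11 thalamic markers, 1.87 and 1.00, beside -0.84 to -0.13 in the other 6 libraries; a score is the mean over tested members of log2 CPM minus each gene's mean over the 8 libraries. Isl1 and Foxp2 were also highest in chow replicates 5 and 8, as was the score of the 7 cholinergic markers (1.73 and 2.15). That score was close behind in chow replicate 1 (1.63) and high fat replicate 8 (1.56), so it did not set chow replicates 5 and 8 apart. The part of thalamic or other cells in the Zfhx3 values was not tested.

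The Dlx genes did not vary as a block. Dlx5 was at 6.89, 11.7, 6.64 and 11.8 CPM in the high fat libraries and 24.5, 6.57, 11.7 and 16.1 CPM in those on chow. Dlx6 was at 5.37, 9.96, 6.26 and 10.8 CPM in the high fat libraries and 18.4, 4.97, 14.3 and 20.1 CPM in those on chow. In both genes chow replicates 1 and 8 were highest and chow replicate 2 was lowest, so the groups overlapped. The log2 fold changes were -0.67 ± 0.39 for Dlx5 and -0.83 ± 0.42 for Dlx6 (SE; adjusted p = 0.753 each by edgeR). Without chow replicate 1 the fold of Dlx5 was -0.32. Without chow replicate 2 that of Dlx6 was -1.12 (adjusted p = 0.0832 by edgeR), which was the smallest adjusted p of a member in any edgeR setting.

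Dlx2 was at 8.84, 7.65, 9.79 and 10.7 CPM in the high fat libraries and 16.6, 9.61, 11.5 and 11.1 CPM in those on chow. Chow replicate 1 was highest, and chow replicate 2 was the only chow library within the high fat range. Its neighbour Dlx1 was at 43.0, 30.2, 39.9 and 40.6 CPM in the high fat libraries and 22.2, 36.8, 34.3 and 25.7 CPM in those on chow. Here 3 of the 4 high fat libraries stood above all chow libraries, and high fat replicate 2 lay among the chow libraries. The log2 fold changes were 0.37 ± 0.19 for Dlx1 and -0.40 ± 0.20 for Dlx2 (SE; adjusted p = 0.753 each by edgeR). Without chow replicate 1 they were 0.25 and -0.22.

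Ratios within a library do not depend on how libraries are scaled. The ratio of Dlx1 to Dlx2 estimated counts was 4.86, 3.94, 4.07 and 3.79 after high fat feeding. In the chow libraries it was 1.33, 3.83, 2.99 and 2.31. Chow replicate 2 alone reached the high fat range. The ratio of Dlx1 to Dlx5 spanned 2.58 to 6.24 with high fat diet and 0.903 to 5.60 with chow, whereas that of Dlx5 to Dlx6 stayed between 1.06 and 1.28 with high fat diet and 0.803 and 1.34 with chow. These ratios were chosen after the values were seen and were not tested.

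**Figure D2:**
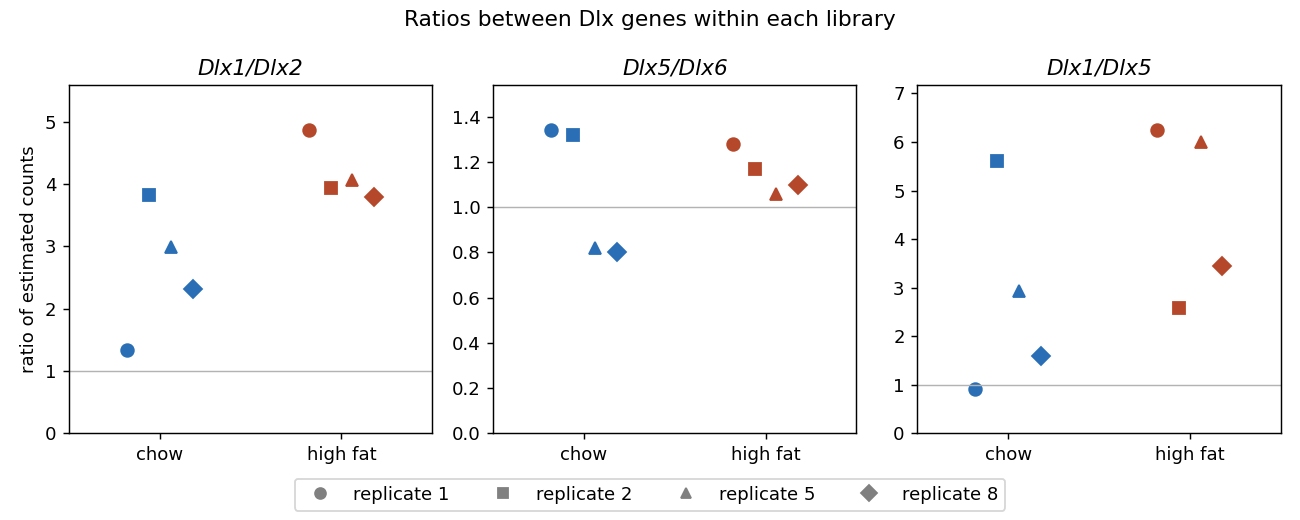
Ratio of estimated counts between Dlx genes (y axis) within each chow and high fat library, 1 point per library, with a grey line at equal counts. Dlx1 exceeded Dlx2 in all 8 libraries, by 1.33 times in chow replicate 1 and 4.86 times in high fat replicate 1, while Dlx5 over Dlx6 stayed between 0.803 and 1.34.

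The members differed in their patterns over the libraries. Likeness was measured as the root mean square difference of log2 CPM, each gene centred on its mean over the 8 libraries, so that 0 is an identical pattern. The likest members were Tshz1 and Dlx2 (0.209), Dlx5 and Dlx6 (0.269), Meis2 and Dlx6 (0.306), Meis2 and Dlx5 (0.354), and Foxp2 and Zfhx3 (0.402). Genes that vary little are near each other by this measure, which applies to Tshz1 and Dlx2, whose SDs over the libraries were 0.24 and 0.33. Of the other paralogues, Dlx2 and Dlx5 were at 0.459, Dlx1 and Dlx2 at 0.558, Dlx2 and Dlx6 at 0.583, Dlx1 and Dlx5 at 0.918, Dlx1 and Dlx6 at 0.998, and Foxp1 and Foxp2 at 1.11. Isl1, with an SD of 2.13, was nearest to Foxp2 (1.05).

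**Figure D3:**
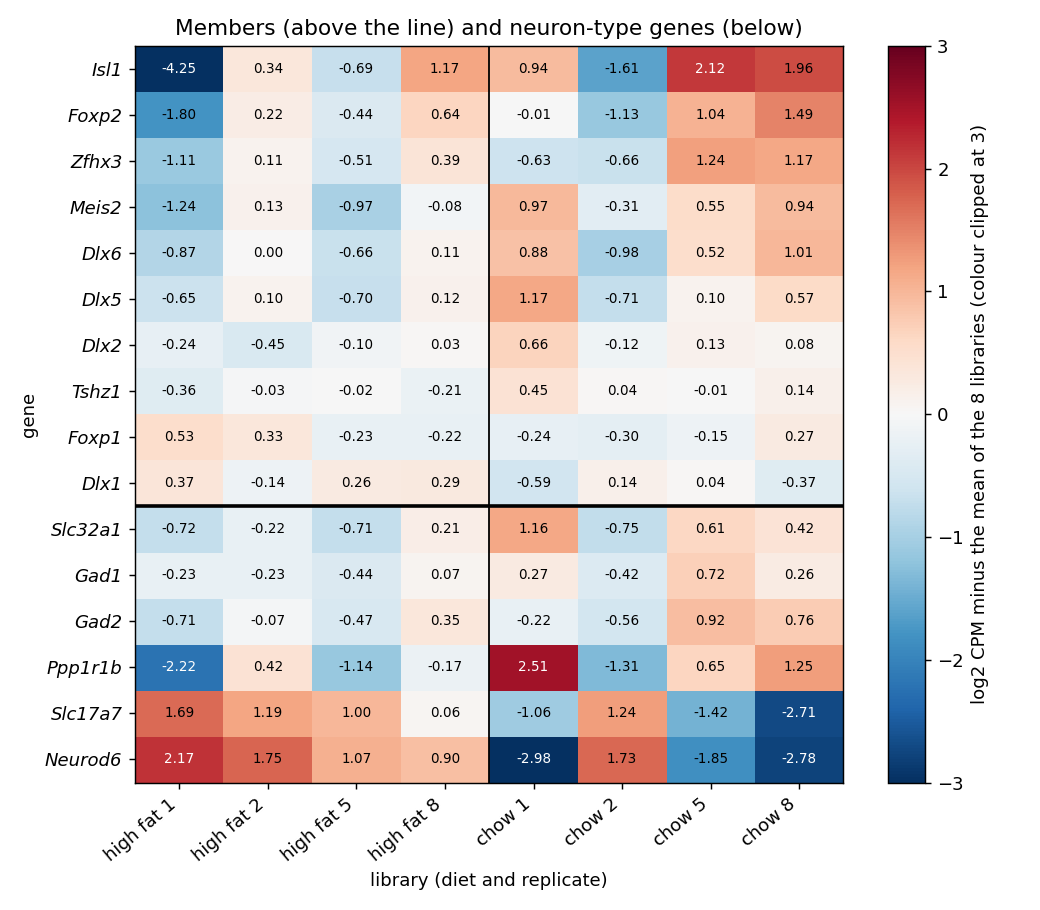
Centred log2 CPM (colour, clipped at 3 on either side of 0, and printed value) of the 10 members above the line and of 6 neuron-type genes below it, in the 4 high fat and 4 chow libraries. Isl1 was at -4.25 in high fat replicate 1 and -1.61 in chow replicate 2, the libraries where Ppp1r1b was lowest at -2.22 and -1.31 and Slc17a7 stood at 1.69 and 1.24. In high fat replicate 2, Slc17a7 stood at 1.19 but Isl1 at 0.34 and Ppp1r1b at 0.42.

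Among 13190 other genes whose mean count was 50 or more, the likest to Meis2 were Rarb, a retinoic acid receptor of striatal neurons (0.203), Cacng5, an AMPA receptor auxiliary subunit (0.213), and Ehhadh, a peroxisomal enzyme of fatty acid oxidation (0.240). Those likest to Isl1 were Lhx8, a LIM homeobox gene of cholinergic neurons (0.672), Serpina9 (0.699) and Penk, the enkephalin precursor gene (0.777). Those likest to Foxp2 were Insyn2b (0.224), Ccdc187 (0.276) and Oprk1, the kappa opioid receptor gene (0.338). Lhx8 was lowest in high fat replicate 1 (0.056 CPM) and chow replicate 2 (0.607 CPM), as was Isl1. Likeness here rests on 8 libraries that differ in their cell type markers.

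Other regulators of the subpallium did not pass the test either. Of 28 such genes 27 were tested and 0 passed in either direction. Folds were positive for 12 and negative for 15, and the median log2 fold was -0.049, near that of all genes. By edgeR 4 had an unadjusted p under 0.05, all lower with high fat diet, where 2.63% of all genes were. Those with the smallest p were Pax6, Zfp521, Rxrg and Rarb, with log2 folds of -0.70 ± 0.25, -0.71 ± 0.29, -1.23 ± 0.53 and -0.94 ± 0.41 (SE; adjusted p = 0.753 each by edgeR). The median hides a wide spread, since folds in this list ran from -1.75 ± 0.786 for Six3 to 0.685 ± 0.503 for Satb1 (SE). Both were named after their values were seen. Lhx6, a regulator of ventrally born interneurons chosen after its values were seen, had 0.035 ± 0.21 (SE; adjusted p = 0.965 by edgeR). Of 11 paralogues of the members 7 were tested, with 0 called, 3 positive and 4 negative folds and a median of -0.29. Meis1, the closest relative of Meis2, was at 2.91 to 9.66 CPM with high fat diet and 16.1, 3.31, 14.0 and 13.4 CPM in chow replicates 1, 2, 5 and 8, so that the same chow library stood low as for Meis2. Meis1, Meis3, Zfhx4 and Zfhx2 had log2 folds of -1.02 ± 0.52, -0.29 ± 0.17, -0.80 ± 0.62 and 0.26 ± 0.20 (SE).

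GABA identity genes, which lie downstream of DLX proteins in development, mostly had negative folds. Of the 5, 0 passed, 4 were negative and the median log2 fold was -0.49. Slc32a1, the vesicular GABA transporter, had -0.82 ± 0.38, Abat, a GABA-degrading enzyme, -0.49 ± 0.25, and Gad1 and Gad2, the GABA-synthesizing enzymes, -0.45 ± 0.23 and -0.52 ± 0.36 (SE). The ratio of Meis2 to Gad1 estimated counts was 0.140, 0.361, 0.194 and 0.253 after high fat feeding and 0.460, 0.303, 0.251 and 0.454 in the chow libraries. The groups overlapped in this ratio, with chow replicates 1 and 8 highest.

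Pallial factors had folds of the opposite sign to most members. Of 14 pallial transcription factors 0 passed, 13 had positive folds, and the median log2 fold was 0.87. Emx2, Fezf2 and Neurod2, which specify cortical and excitatory neurons, had 0.76 ± 0.37, 1.54 ± 0.79 and 1.66 ± 0.90, and Cux2, an upper-layer gene, had -0.37 ± 0.19 (SE). Neurod2 was at 57.4 to 166 CPM with high fat diet, 115 CPM in chow replicate 2 and 7.52 to 9.83 CPM in the other chow libraries. Thus the 3 chow libraries in which Meis2 was highest were those in which Neurod2 was lowest.

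Striatal and cholinergic markers are given beside the members' levels, and their part in the diet folds was not tested. Mean scores of the 10 members in the high fat libraries were -0.96, 0.06, -0.41 and 0.23, and in the chow libraries 0.36, -0.57, 0.56 and 0.73. The score of high fat replicate 1 is pulled down by Isl1, at -4.25 from only 2 estimated counts. Striatal marker scores were -2.28, 0.37, -0.68 and -0.07 with high fat diet and 1.85, -1.27, 0.78 and 1.30 with chow, with 12 of 12 folds negative. Scn4b, Pde10a, Ppp1r1b and Adcy5 of this list, a channel subunit, a phosphodiesterase, the DARPP-32 gene and an adenylyl cyclase, had log2 folds of -2.12 ± 0.79, -0.90 ± 0.34, -1.79 ± 0.78 and -0.65 ± 0.28 (SE), with 0 passing. Both scores were lowest in high fat replicate 1, and chow replicate 2 had the next lowest. Single members did not all follow this order, since Dlx1 and Foxp1 had centred log2 CPM of 0.37 and 0.53 in high fat replicate 1 and of -0.59 and -0.24 in chow replicate 1.

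The 7 cholinergic markers varied widely. Their scores were -3.08, -0.18, -1.58 and 1.56 after high fat feeding and 1.63, -2.21, 1.73 and 2.15 in the chow libraries, with 7 of 7 folds negative and 0 passing. Chat, the acetylcholine-synthesizing enzyme, had 0.392 and 1.09 CPM in numbers 1 and 5 of the high fat diet, 1.32 CPM in chow replicate 2 and 5.61 to 36.6 CPM in the other 5 libraries. Isl1 was lowest in the same 3 libraries, but so were Meis2, Foxp2, Dlx5, Dlx6 and the striatal markers Drd1, Drd2 and Penk. These 3 libraries were not the lowest for Foxp1, Tshz1, Zfhx3, Dlx1 or Dlx2. Ache, the acetylcholine-degrading enzyme of this list, was at 66.7, 82.1 and 71.1 CPM in these 3. Lhx8, also in this list, is the gene likest to Isl1. The 8 intercalated cell markers, of which Foxp2, Tshz1 and Meis2 are members here, had 7 negative folds, 0 passing and a median of -0.73. Oprm1, the mu opioid receptor gene of intercalated cells, was at 0.552 to 2.54 CPM throughout.

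Markers of other cell types were also compared, and 0 of them passed. All 8 myelin markers had negative folds (median -1.06), as had all 8 microglial (median -0.40) and all 7 choroid plexus markers (median -0.96), whereas 4 of 7 astrocyte markers were positive (median 0.053). Of the 11 thalamic markers 9 were negative (median -1.03), of 8 tested hypothalamic and medial amygdala markers 3 were (median 0.71), and of 10 central amygdala markers 5 were (median -0.24). Prkcd, the central amygdala marker with the smallest p, had a log2 fold change of -2.5 ± 0.8 (SE; adjusted p = 0.753 by edgeR). It was at 10.97 to 25.15 CPM with high fat diet and 25.92, 20.15, 272.7 and 58.43 CPM with chow. Its highest libraries, chow replicates 5 and 8, also had the highest thalamic scores. The part of thalamic cells in the Prkcd values was not tested. Shox2, a thalamic marker, was at 0 in chow replicate 1 but at 33.02 and 9.675 CPM in chow replicates 5 and 8. The hypothalamic marker Sim1 was at 0 in high fat replicate 1 and the hypothalamic marker Oxt at 0 in chow replicate 2. Both were highest in high fat replicate 8 and chow replicate 8, Sim1 at 2.635 and 2.045 CPM and Oxt at 14.43 and 6.523 CPM.

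The diet folds of most members moved when excitatory markers were taken into the fit. Of the 12 excitatory markers 11 had positive folds (median 0.97) and 0 passed. Their score was 0.95, 0.73, 0.84 and 0.06 after high fat feeding and -0.97, 0.88, -1.12 and -1.37 in the chow libraries. With that score as a covariate the median log2 fold of the members went from -0.70 to 0.29, with 7 of 10 positive, 0 called and an adjusted p of 1 for each by edgeR. The fold of Meis2 went from -1.05 to -0.23, and those of Isl1, Foxp2, Zfhx3, Dlx5 and Dlx6 turned to 1.33, 0.89, 0.43, 0.25 and 0.45. Foxp1, Tshz1, Dlx1 and Dlx2 kept their signs, at 0.33, -0.24, 0.17 and -0.14. All 4 high fat libraries scored above 3 of the 4 chow libraries, so diet and excitatory content cannot be told apart for these members.

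**Figure D4:**
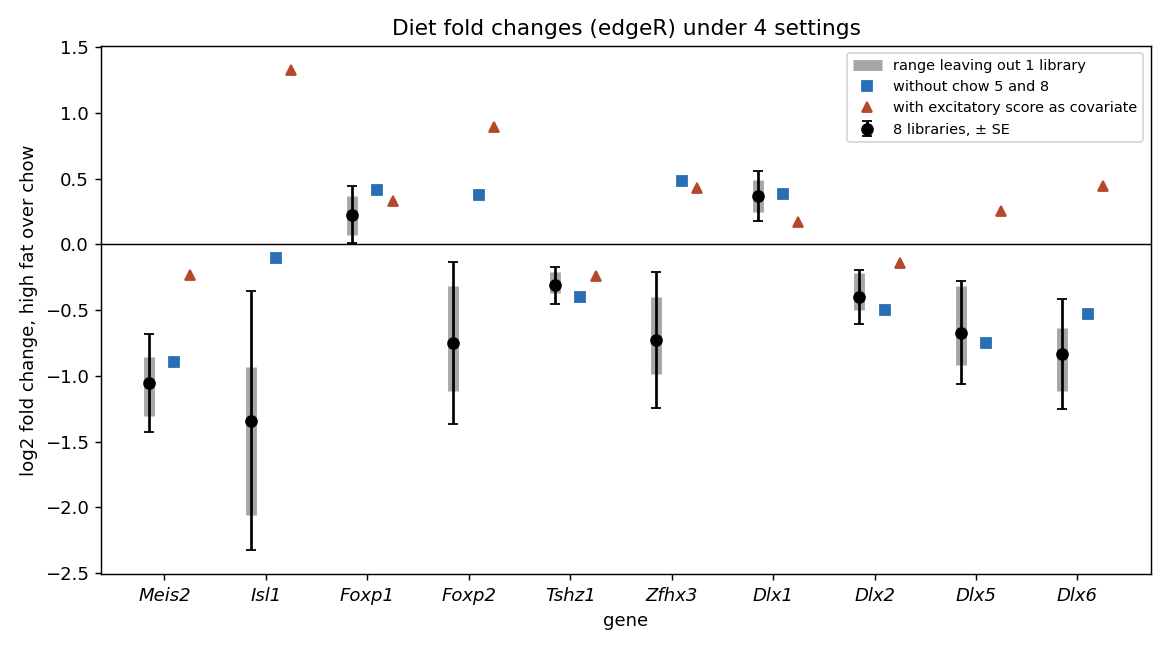
Log2 fold change of each member, high fat over chow (y axis), by edgeR with all 8 libraries (black, with SE), over the range obtained by leaving out 1 library (grey), without chow replicates 5 and 8 (blue squares) and with the excitatory score as a covariate (red triangles). Meis2 lay at -1.05 with all libraries and -0.23 with the covariate, and Foxp2 and Zfhx3 changed sign in both added settings. Both genes were highest in chow replicates 5 and 8, so leaving these libraries out had to raise their folds.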

How the data were processed

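mRNA of central amygdala was sequenced as single-end reads in 8 libraries. The authors deposited 1 table of estimated (expected) counts per gene and library, of whose values 35.2% were not whole (tolerance 1e-06), beside means per diet of the expected count, FPKM and TPM, per the file headers. Per the submitters' processing notes, which give no roles, Bowtie2 2.2.5, RSEM 1.2.8 and mm10 were used. No annotation or strand setting is stated. The deposited FPKM means were not used in a result.

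Counts were rounded, filtered with filterByExpr (15186 of 18983 genes) and scaled by TMM. High fat diet was tested against chow by edgeR 4.0.16 under R 4.3.3 (quasi-likelihood, two-sided, no covariate, Benjamini-Hochberg over all genes, threshold 0.05), after testing on simulated data. SEs were derived as the fold over the square root of F. Log2 CPM uses a prior count of 2. Alternatives were RLE and upper-quartile factors, 2 other filters, a block for the title number, leaving out libraries, the excitatory score as a covariate, DESeq2 1.42.0 and limma-voom (limma 3.58.1). Named genes are the members, up to 4 genes of each list with the smallest p, the 3 likest genes to Meis2, Isl1 and Foxp2, and a fixed set of neuron-type genes. Sst, Crh, Oprm1, Lhx6, Six3, Satb1, Shox2, Sim1 and Oxt were named after their values were seen. The members and lists were chosen with earlier results of these data known. Coordinates and start-site sequences come from RefSeq GRCm38.p6 (10 of 10 members matched by Entrez identifier), strands and transcripts from GENCODE M21, the same build. No 2 libraries agreed within sampling noise (chi-square per degree of freedom from 8.12 to 198).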

Additional observations from a re-analysis of the deposited data

How the results depend on the processing

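Of 170 alternative fold changes of single members, 163 kept their sign and 0 passed the threshold. The 7 that turned were Foxp2 (0.38) and Zfhx3 (0.48) without chow replicates 5 and 8 together, and Isl1 (1.33), Foxp2 (0.89), Zfhx3 (0.43), Dlx5 (0.25) and Dlx6 (0.45) with the excitatory score as a covariate, which moved the members' median log2 fold from -0.70 to 0.29. Foxp2 and Zfhx3 were highest in chow replicates 5 and 8, so leaving these libraries out had to raise their folds. Otherwise the cause was not tested. The count of members called by edgeR, DESeq2 or limma-voom was 0 in all 17 alternatives. With 1 library left out, the count of all genes called ran from 0 to 116, the latter without chow replicate 2, and the members' median from -0.95 to -0.44. Adding the title number as a replicate block gave 0 genes, 0 members and a median of -0.57. Under it 572 genes had an unadjusted p under 0.05, beside 649 without it. Same-numbered libraries share only a number (correlations of their deviations from the diet means 0.013, -0.043, 0.035 and 0.389), and 2 of 8 libraries correlated best with their own number. Isl1 had only 2 counts in high fat replicate 1, although only chow replicate 1 exceeded that library's total of 18941262 estimated counts.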
